A study of Saccharomyces cerevisiae with 8 samples.

Results

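The cytosolic ribosomal protein genes of budding yeast were followed across wild type cells and mutants of the cAMP and protein kinase A pathway. Protein kinase A activity was not measured here. A gene was taken as a member where its annotated symbol was RPL or RPS followed by a number, with or without A or B, or was one of RPP0, RPP1A, RPP1B, RPP2A and RPP2B. This gave 127 of the 5449 genes tested, read by 147 of the 5814 probe sets of the Affymetrix Yeast Genome 2.0 array. The 127 genes comprise 70 of the large (60S) subunit, 5 of its stalk and 52 of the small (40S) subunit. For 50 duplicated genes both the A and the B copy had a probe set under its name.

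Strains in the BY4741 background were compared, 3 in all, each mating type a and his3Δ1 leu2Δ met15Δ ura3Δ. The Δpde2 strain (3 arrays) carries a KanMx replacement of PDE2, the gene of the high-affinity cAMP phosphodiesterase. The Δpde2Δtpk3 strain (2 arrays) lacks PDE2 through a HIS3 replacement and also TPK3, one of the genes of the catalytic subunits of protein kinase A, through KanMx. The wild type (3 arrays) and Δpde2 came from a commercial collection and Δpde2Δtpk3 was built in the laboratory, so the loss of TPK3, the marker at PDE2 and the origin of the strain cannot be told apart. Every culture was grown in YPD with 4 mM cAMP and was harvested at 24 h, around the diauxic shift. The paper describes Δpde2 cells as breaking cAMP down inefficiently, so that its level can be changed by adding it. The level of cAMP in the cells was not measured here. No array without added cAMP was analysed here. The methods describe replicate cultures of both mutants, while the sources used here do not say whether the wild type arrays came from separate cultures, so the p-values measure the spread between arrays, which may in part be technical.

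Ribosomal proteins assemble with ribosomal RNA into the subunits that translate every message of the cytosol, and the large subunit carries the stalk of acidic P proteins that recruits translation factors. Most yeast ribosomal protein genes were kept in duplicate after an ancient genome duplication, and many carry introns, which are rare in this yeast. Their transcription rests on the factor Rap1, the forkhead protein Fhl1 with its coactivator Ifh1, and Sfp1, and it is raised by TOR and protein kinase A signalling while nutrients last and shut down at the diauxic shift and under stress. Values are quantile normalized log2 signals, so they are relative to the other transcripts of the same array, and a difference of 1 on this scale is a 2-fold change. RNA was pooled over a whole culture, and fewer cells with a transcript cannot be told apart from less transcript per cell.

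The deleted genes matched the labels. PDE2 averaged 5.06 ± 0.13 in Δpde2 (SD, n = 3) and 5.03 ± 0.20 in Δpde2Δtpk3 (n = 2), against 9.84 ± 0.81 in wild type (n = 3). TPK3 averaged 8.66 ± 0.15 in Δpde2 and 4.67 ± 0.42 in Δpde2Δtpk3, against 8.69 ± 0.07 in wild type. One array stood apart: wild type replicate 1 correlated with the other wild type arrays at r = 0.868 and 0.878 over all genes, whereas those correlated with each other at 0.992. Its SRB4 control had a 3′ minus 5′ signal of 2.84, against 1.05 to 1.28 in Δpde2, 1.65 and 1.80 in Δpde2Δtpk3, and 1.92 and 1.77 on the other wild type arrays. The other such controls were mixed. EAF5 was also highest on wild type replicate 1 (1.39), whereas ACT1 (0.19) and WBP1 (0.70) were lowest there. RIP1, SPT15 and TDH1 lay within the range of the other arrays. Over the 127 genes wild type replicate 1 lay a median of 0.17 above the mean of the other wild type arrays. Of these genes, 6 lay more than 1 below that mean, namely RPL39, RPL38, RPS10A, RPS10B, RPL41A and RPS27A, and 1 more than 1 above (11.7% and 9.45% of all genes). The part of this array in the results was not tested, and the counts of calls that it moved by over 1.5 times are given with and without it.

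As a group the ribosomal protein transcripts were highest on the Δpde2 arrays. Their median log2 signal was 13.05, 13.08 and 12.98 on the Δpde2 arrays and 12.62 and 12.73 on the Δpde2Δtpk3 arrays, against 12.63, 12.60 and 12.47 on the wild type arrays. The 3 Δpde2 arrays thus lay above all 5 others, and 1 of the Δpde2Δtpk3 arrays fell within the wild type range while the other lay just above it. Summed on the linear scale, the members made up 8.64%, 8.68% and 8.31% of the signal of all genes in Δpde2 and 6.36% and 6.89% in Δpde2Δtpk3, against 6.46%, 6.26% and 5.72% in wild type. These shares depend on how brightly each probe set hybridizes and are no shares of mRNA molecules.

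**Figure D1:**
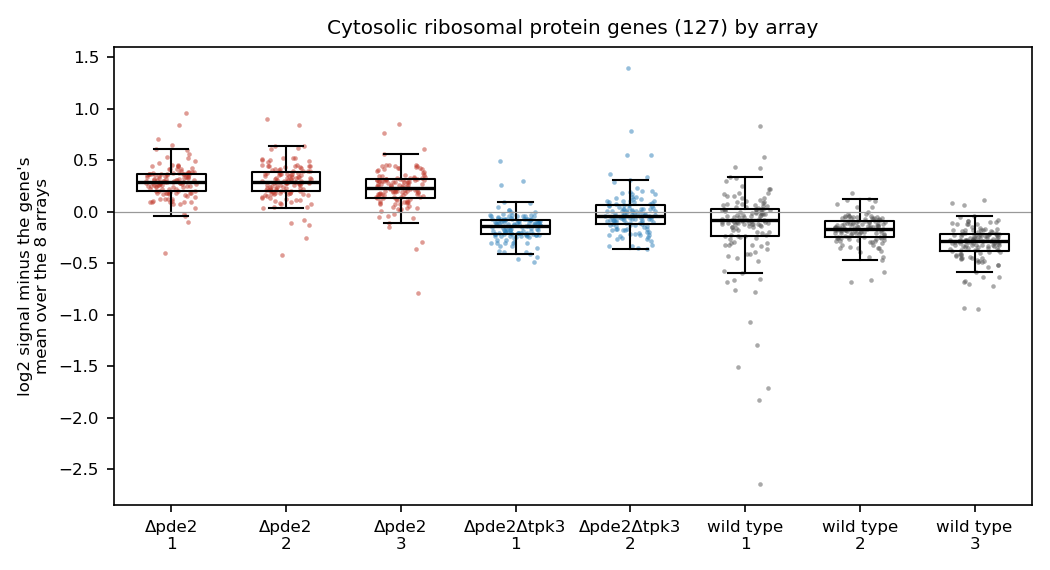
Each point is 1 of the 127 ribosomal protein genes on 1 array, as its normalized log2 signal minus its own mean over the 8 arrays; boxes show the median and quartiles, and whiskers the range apart from outlying genes. The boxes of the 3 Δpde2 arrays lie above the others, and wild type replicate 1 has a tail of low genes.

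Loss of PDE2 in the presence of cAMP was set against wild type first. In Δpde2, 81 of the 127 genes rose and none fell (limma, Benjamini-Hochberg adjusted p under 0.05 over all genes), where 19.5% of all genes tested were called higher and 21.9% lower. The rise was broad and small. The median log2 difference of the members was 0.47, a 1.38-fold change, beside 0.03 over all genes, with quartiles of 0.32 and 0.65 over the members. The difference was above 0 for 122 members (51.8% of all genes), and on 105 members every Δpde2 array lay above every wild type array, an arrangement found for 31.1% of all genes. Only 5 members passed with at least a 2-fold rise (6.96% of all genes). Without wild type replicate 1, 105 members rose (31.4% of all genes), including all 81, and none fell (29.4%). The count was 50 without wild type replicate 3 and 40, 42 and 49 without Δpde2 replicates 1, 2 and 3, settings in which 15.8%, 11.7%, 12.2% and 11.0% of all genes were called higher, while the median difference stayed between 0.38 and 0.50 whichever array was left out.

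**Figure D2:**
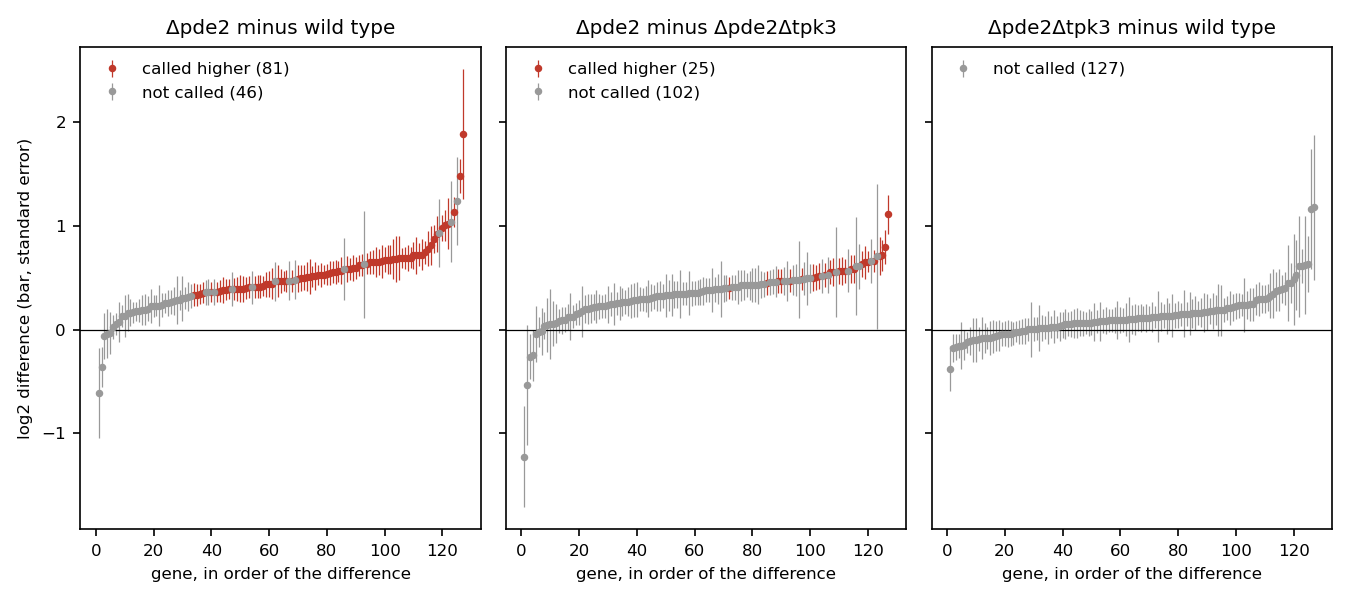
The log2 differences of the 127 ribosomal protein genes, ranked within each of 3 comparisons, with limma standard errors as bars and red marking genes called at an adjusted p under 0.05. Of the 127 genes, 81 were called in Δpde2 minus wild type, 25 in Δpde2 minus Δpde2Δtpk3 and 0 in Δpde2Δtpk3 minus wild type, and none of the calls was below 0.

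Both subunits took part. In Δpde2 against wild type, 49 of 70 genes of the 60S subunit rose, with a median difference of 0.51, as did 2 of 5 stalk genes (5 of 5 without wild type replicate 1), with a median of 0.36, and 30 of 52 genes of the 40S subunit, with a median of 0.41. The share called was also alike for single-copy genes (12 of 18), A copies (36 of 54) and B copies (33 of 55). These classes were not tested against each other. By signal, 8 of 21 members with a mean log2 signal below 12 rose, with a median difference of 0.28, against 38 of 59 between 12 and 13 and 35 of 47 above 13.

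RPS22A, which encodes a small subunit protein, had the largest difference among the called members apart from RPL39. Its log2 signal was 12.94, 12.99 and 12.86 in Δpde2 and 11.89 and 11.74 in Δpde2Δtpk3, against 11.78, 11.41 and 11.16 in wild type. Every Δpde2 array lay about 1 unit or more above every other array. The Δpde2 to wild type difference was 1.48 (SE 0.17, 2.80-fold, adjusted p = 0.000859).

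RPS26B, whose product lies where mRNA leaves the small subunit, came next among the genes measured tightly. It read 12.88, 12.69 and 12.62 in Δpde2 and 12.14 and 12.28 in Δpde2Δtpk3, against 11.49, 11.85 and 11.45 in wild type. The 3 strains did not overlap, with Δpde2Δtpk3 in the middle. The difference of Δpde2 from wild type was 1.13 (SE 0.15, 2.19-fold, adjusted p = 0.00132).

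Among large subunit genes, RPL34A read 12.60, 12.47 and 12.51 in Δpde2 and 11.87 and 11.59 in Δpde2Δtpk3, against 11.74, 11.51 and 11.31 in wild type. Here the Δpde2Δtpk3 and wild type arrays overlapped and the Δpde2 arrays lay clear of both, 1.00 above wild type (SE 0.15, 2.01-fold, adjusted p = 0.00199). RPL9A rose by 1.02 in Δpde2 (2.03-fold, adjusted p = 0.0145), RPL31B by 0.98 (1.97-fold, adjusted p = 0.00115) and RPL14A by 0.92 (1.90-fold, adjusted p = 0.00563). RPL31B encodes a protein at the rim of the peptide exit tunnel. RPS20, a gene of the head of the small subunit, rose by 0.87 (1.83-fold, adjusted p = 0.00298).

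RPL39, which encodes a small protein lining the exit tunnel, had the largest fitted difference, and it rests partly on 1 array. Its log2 signal was 13.36, 13.24 and 13.25 in Δpde2 and 12.69 and 12.46 in Δpde2Δtpk3, against 9.75, 12.36 and 12.07 in wild type. The Δpde2 arrays were the highest 3, and wild type replicate 1 lay more than 2 units below the rest. With all arrays the Δpde2 to wild type difference was 1.89 (SE 0.63, adjusted p = 0.0466), and without that array it was 1.07 (adjusted p = 0.000270). Of 19 alternatives, RPL39 was not called in 12, with an adjusted p of up to 0.119. RPL38 behaved alike: it read 13.35, 13.38 and 13.34 in Δpde2 and 12.66 and 12.83 in Δpde2Δtpk3, against 11.03, 12.78 and 12.55 in wild type. Its difference of 1.24 did not pass with all arrays (adjusted p = 0.0514), and the difference of 0.69 without wild type replicate 1 did (adjusted p = 0.000979). RPS10A and RPS10B, measured by probe sets that may hybridize to unrelated transcripts, likewise gave 0.93 and 1.04 with all arrays (adjusted p = 0.0575 and 0.0675), and 0.52 and 0.54 without that array (adjusted p = 0.00384 and 0.00267).

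The stalk P proteins gave 2 calls. RPP2A averaged 13.52 ± 0.03 in Δpde2 and 13.10 ± 0.02 in Δpde2Δtpk3, against 12.81 ± 0.22 in wild type (SD, n = 3, 2 and 3), and rose by 0.72 in Δpde2 over wild type (adjusted p = 0.00535). RPP2B rose by 0.39 (adjusted p = 0.0230). The other stalk genes were positive but did not pass with all arrays: the scaffold gene RPP0 differed by 0.36 (adjusted p = 0.0502), RPP1A by 0.29 (adjusted p = 0.0515) and RPP1B by 0.26 (adjusted p = 0.146). Without wild type replicate 1, all 5 were called higher in Δpde2.

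Several members are known for features beyond the ribosome. RPL3, whose product reaches towards the peptidyl transferase centre, averaged 13.91 ± 0.05 in Δpde2 and 13.55 ± 0.11 in Δpde2Δtpk3, against 13.49 ± 0.12 in wild type, and rose by 0.41 in Δpde2 (adjusted p = 0.0225). RPL30, which controls the splicing of its own transcript, averaged 13.97 ± 0.01 in Δpde2 and 13.47 ± 0.12 in Δpde2Δtpk3, against 13.32 ± 0.18 in wild type, and rose by 0.66 (adjusted p = 0.00606). The genes that encode ubiquitin fused to a ribosomal protein rose as well in Δpde2 against wild type. RPS31 did so by 0.55 (adjusted p = 0.00924), RPL40A by 0.37 (adjusted p = 0.0216) and RPL40B by 0.34 (adjusted p = 0.0497), the smallest difference among the 81 called members. These smaller rises lay close to the threshold: of 19 alternatives, the call was lost in 12 for RPL40B, in 9 for RPL40A, in 8 for RPL3 and in 7 for RPP2B.

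**Figure D3:**
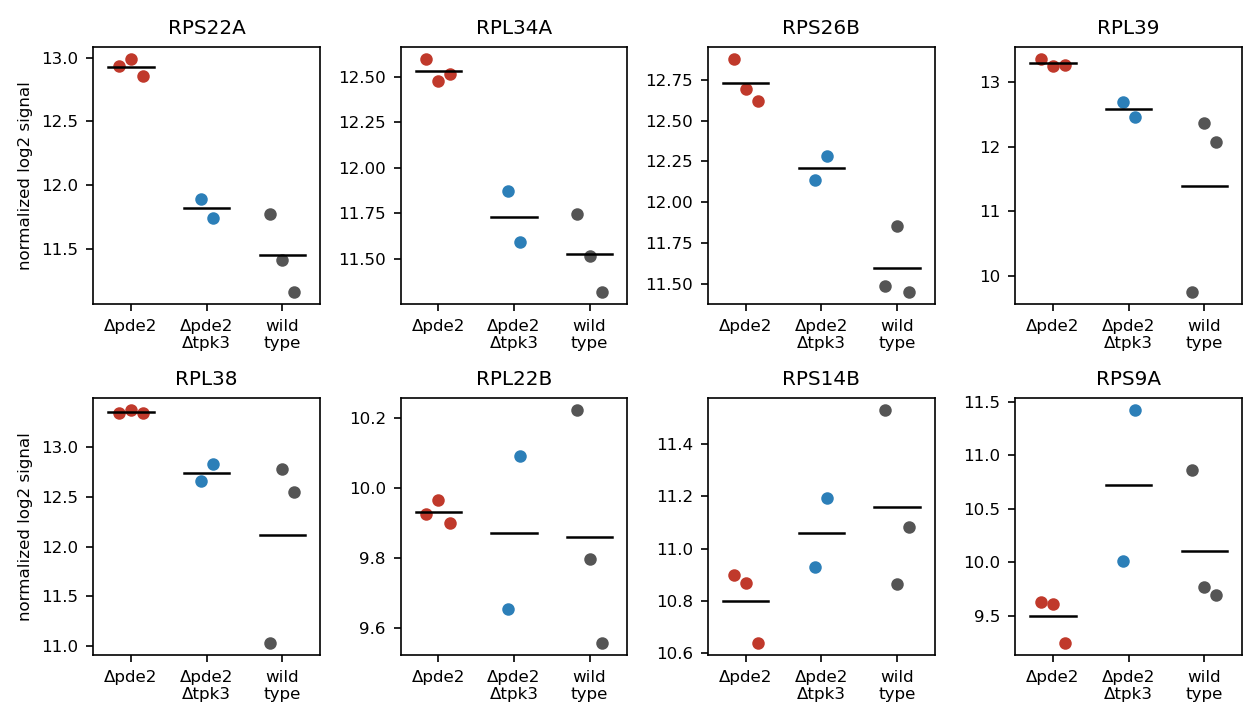
Normalized log2 signals of 8 ribosomal protein genes on each array, with the strain mean as a bar; the vertical axes differ between panels and do not start at 0. RPS22A, RPL34A, RPS26B, RPL39 and RPL38 were highest on all Δpde2 arrays, the strains overlapped for RPL22B, and RPS9A was lowest on the Δpde2 arrays.

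Next, Δpde2 was set against Δpde2Δtpk3, strains that differ in TPK3 and also in the marker at PDE2 and in origin. In Δpde2, 25 of the 127 members rose relative to Δpde2Δtpk3 and none fell, where 5.56% of all genes were called higher and 7.41% lower. The median difference was 0.38, a 1.30-fold change, beside 0.02 over all genes. On 106 members every Δpde2 array lay above both Δpde2Δtpk3 arrays, an order found for 34.0% of all genes. The calls fell in both subunits, 16 of 70 genes of the 60S subunit and 9 of 52 of the 40S subunit, with none of the 5 stalk genes. They were 47, 33 and 1 without wild type replicate 1. Of the 25 with all arrays, 24 were also called in Δpde2 against wild type, a comparison that shares the Δpde2 arrays, and the other 1 was RPS16A.

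This count of calls leaned on single arrays although the sizes of the differences did not. It was 81 higher and 1 lower without wild type replicate 1 (23.8% and 20.8% of all genes), an array that enters this comparison only through the shared estimate of the spread. It was 12 without wild type replicate 2 and 13 without wild type replicate 3. No member was called once Δpde2 replicate 1, 2 or 3 or Δpde2Δtpk3 replicate 1 or 2 was left out, whereas the median difference stayed between 0.32 and 0.43. With all arrays, 72 members had an unadjusted p under 0.05 (29.2% of all genes), 71 of them higher in Δpde2.

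The gene furthest apart between the mutants was again RPS22A, with a difference of 1.11 (SE 0.19, 2.16-fold, adjusted p = 0.0163), the only member called at 2-fold or more (1.47% of all genes). RPL34A followed at 0.80 (adjusted p = 0.0242), with its paralogue RPL34B at 0.66 (adjusted p = 0.0145). RPL34B read 13.26, 13.17 and 13.26 in Δpde2 and 12.57 and 12.57 in Δpde2Δtpk3, against 12.51, 12.59 and 12.53 in wild type, so that the last 2 strains overlapped. RPL21B (0.72, adjusted p = 0.0242), RPL8B (0.71, adjusted p = 0.0489), RPL19A (0.66, adjusted p = 0.0139), RPL13B (0.65, adjusted p = 0.0407) and RPL26B (0.63, adjusted p = 0.0232) completed the 8 largest called rises, each of which lost its call in 6 to 11 of 19 alternatives. All of these but RPS22A belong to the large subunit.

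Set directly against each other, Δpde2Δtpk3 and wild type differed little in these genes. None of the 127 members was called with all arrays, where 1.03% of all genes were called higher and 1.69% lower, and 4 had an unadjusted p under 0.05 (20.1% of all genes). The median difference was 0.10, beside 0.00 over all genes, with 100 members above 0 and 27 below. This small shift depended on the normalization: with cyclic loess the median was 0.03, beside 0.03 over all genes, and 79 members lay above 0. Every Δpde2Δtpk3 array lay above every wild type array for 27 members (16.0% of all genes) and below for 5 (21.0%). Without wild type replicate 1 these counts were 61 and 6, beside 1514 and 1606 of all 5449 genes. With fewer arrays such an order is met more readily. In that fit 25 members had an unadjusted p under 0.05, all higher in Δpde2Δtpk3, beside 1876 of all genes. With all arrays, the 4 members with an unadjusted p under 0.05 were RPS26B, RPL31B, RPS20 and RPL24B, all higher in Δpde2Δtpk3. The strongest of them, RPS26B, differed by 0.61 (SE 0.16, 1.53-fold, adjusted p = 0.10). Without wild type replicate 1, 7 members were called higher in Δpde2Δtpk3 and none lower (8.77% and 9.08% of all genes): RPL6B, RPL9A, RPL14A, RPP2A, RPS7B, RPS22A and RPS26B, with differences of 0.39 to 0.90. With 2 arrays of 1 strain the comparison has little power, and values that did not pass are not shown to be equal.

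Paralogues were not always called together. Of the 50 pairs with a probe set for each copy, both copies rose in 23 pairs in Δpde2 against wild type, only the A copy in 11, only the B copy in 7, and neither in 9. Without wild type replicate 1 the counts were 34, 8, 5 and 3. Most gaps were small: the median gap between the differences of the copies was 0.18, and 9 pairs were more than 0.5 apart. In 25 pairs the A copy had the larger difference and in 25 the B copy. Gaps between copies were described and not tested, and probes that match both copies would narrow them. In some pairs, RPL2, RPL4 and RPS10 among them, at least 1 copy was read by a probe set not specific to 1 transcript.

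RPS22 showed the widest gap. RPS22A rose by 1.48 in Δpde2, whereas RPS22B read 10.96, 10.88 and 10.86 in Δpde2 and 10.94 and 10.91 in Δpde2Δtpk3, against 10.97, 10.66 and 10.57 in wild type. RPS22B overlapped in all strains, with a Δpde2 to wild type difference of 0.16 (adjusted p = 0.332). It was called higher without wild type replicate 1, by 0.28 (adjusted p = 0.0213), and also with array weights. Within arrays, A minus B was 1.97, 2.11 and 2.00 in Δpde2 and 0.96 and 0.83 in Δpde2Δtpk3, against 0.80, 0.74 and 0.58 in wild type. The balance of the copies thus lay apart in Δpde2 on every array.

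RPS14 gave a gap of 0.91. RPS14A rose by 0.55 in Δpde2 (adjusted p = 0.00691). RPS14B, whose pre-mRNA is bound by the Rps14 protein and held back from splicing, read 10.90, 10.87 and 10.64 in Δpde2 and 10.93 and 11.19 in Δpde2Δtpk3, against 11.53, 10.86 and 11.08 in wild type. Its Δpde2 arrays lay low but overlapped wild type, and the difference was -0.36 (adjusted p = 0.170).

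RPL22 is another pair in which the protein acts on its own minor copy, RPL22B, through the intron of that transcript. RPL22A read 12.46, 12.42 and 12.07 in Δpde2 and 11.83 and 12.11 in Δpde2Δtpk3, against 11.99, 11.62 and 11.27 in wild type, and rose by 0.69 over wild type in Δpde2 (adjusted p = 0.0359), a call lost in 11 of 19 alternatives. RPL22B read 9.93, 9.97 and 9.90 in Δpde2 and 9.65 and 10.09 in Δpde2Δtpk3, against 10.22, 9.80 and 9.56 in wild type. The strains overlapped throughout for RPL22B, with a Δpde2 to wild type difference of 0.07 (adjusted p = 0.786), although with array weights it was called higher, by 0.31.

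In RPS9 the differences of the copies lay on opposite sides of 0, and neither passed against wild type. RPS9A read 9.63, 9.61 and 9.24 in Δpde2 and 10.01 and 11.43 in Δpde2Δtpk3, against 10.86, 9.76 and 9.69 in wild type. It was the only member on which every Δpde2 array lay below every wild type array (30.9% of all genes), and the Δpde2Δtpk3 arrays were more than 1 unit apart. The Δpde2 differences were -0.61 from wild type (adjusted p = 0.285) and -1.23 from Δpde2Δtpk3 (adjusted p = 0.147), of which the second was called once wild type replicate 1 was left out (adjusted p = 0.0274). RPS9B gave 0.41 against wild type (adjusted p = 0.0746).

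Other wide gaps lay in pairs where 1 copy rose clearly. RPL27A rose by 0.68 in Δpde2 (adjusted p = 0.0263) while RPL27B differed by -0.06 (adjusted p = 0.838), a gap of 0.74 that was 0.43 without wild type replicate 1. RPL9A, with 1.02, exceeded RPL9B, with 0.30 (adjusted p = 0.0559). RPS26 ran the other way, RPS26A rising by 0.44 (adjusted p = 0.0316, lost in 9 of 19 alternatives) and RPS26B by 1.13. In RPS28, RPS28A rose by 0.69 (adjusted p = 0.00229), and RPS28B, whose message is destabilized by its own protein, differed by 0.28 (adjusted p = 0.348).

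**Figure D4:**
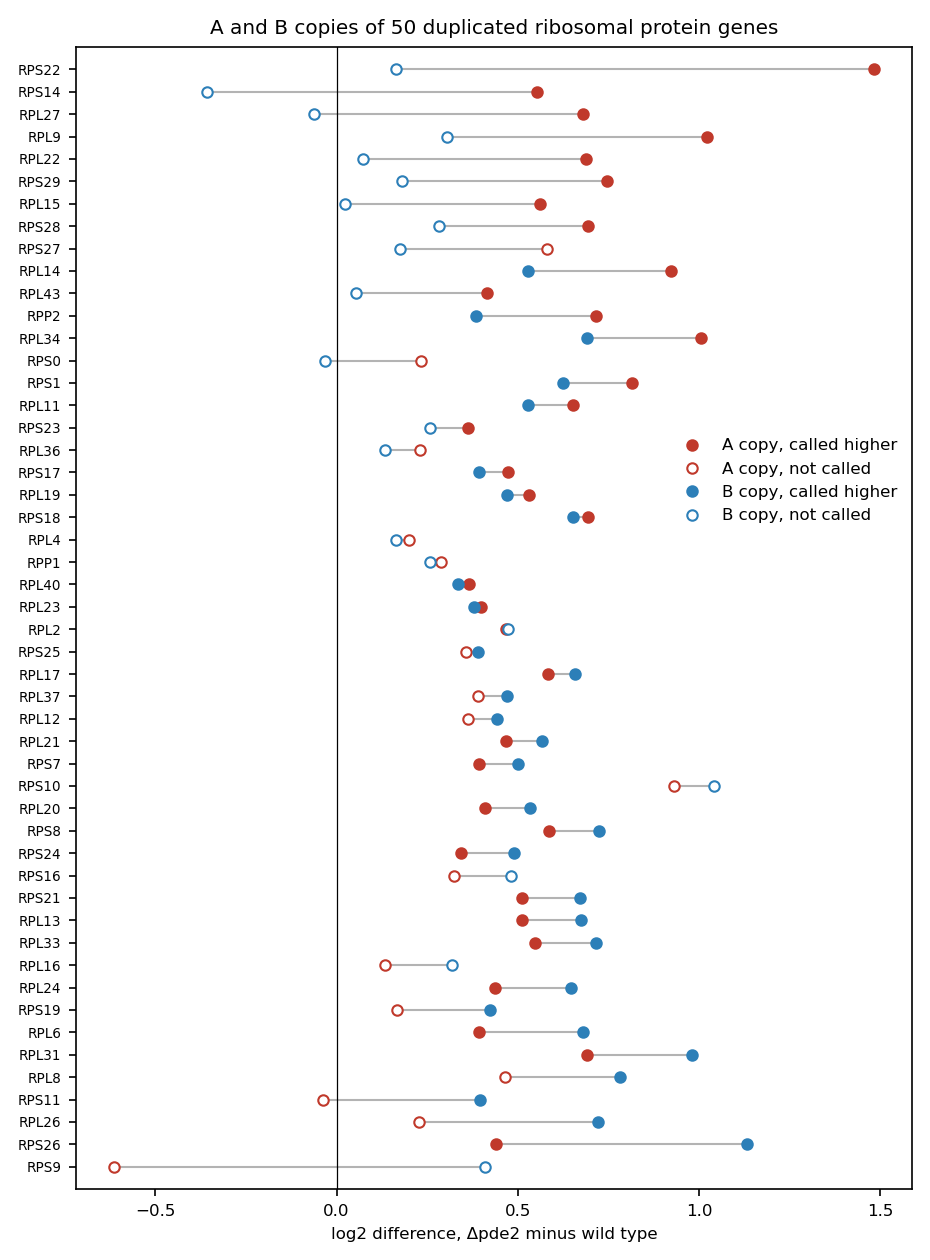
Log2 differences of Δpde2 minus wild type for the A copy (red) and B copy (blue) of 50 duplicated ribosomal protein genes, with filled points called higher at an adjusted p under 0.05 and pairs ordered by A minus B. RPS22, with a gap of 1.32, stands at the top and RPS9, with -1.02, at the bottom.

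Between the mutants the same kind of gap appeared. In Δpde2 against Δpde2Δtpk3, both copies were called in 3 pairs, only the A copy in 9, only the B copy in 8 and neither in 30. These counts were 21, 15, 5 and 9 without wild type replicate 1, while 6 pairs were more than 0.5 apart in both cases. RPS9 (-1.47), RPS22 (1.13), RPS14 (0.72), RPL27 (0.60) and RPS28 (0.52) had the widest gaps as A minus B. RPS22B differed by -0.02 between the mutants, RPL27B by -0.25 and RPS28B by 0.05, none of them passing. RPS28B spread widely in Δpde2Δtpk3, at 10.92 and 11.87.

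A total of 45 members were called in no comparison with all arrays, and 20 of these remained so without wild type replicate 1. Those of the 45 with the smallest Δpde2 to wild type differences were RPL15B, RPS0B, RPS11A, RPL43B, RPL27B, RPL22B, RPL36B, RPL16A, RPL4B and RPS22B, of which all but RPS22B were among the 20. They were not simply unmeasured: RPL43B, for example, read 12.88, 12.86 and 12.75 in Δpde2 and 12.67 and 12.80 in Δpde2Δtpk3, against 12.74, 12.88 and 12.70 in wild type. All 3 strains overlapped, while its paralogue RPL43A was called higher in Δpde2. RPL41A was a different case, a very short gene whose signal lay between 4.21 and 6.83 on all arrays, near the bottom of the range, and whose level can hardly be followed here.

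By the RefSeq gene order, 9 pairs of members lie next to each other on a chromosome, and in 8 of them both Δpde2 to wild type differences were above 0. Since 122 of the 127 members had a difference above 0, this count says little about gene order. RPS14B, RPS22A and RPL39 (YJL191W, YJL190C and YJL189W) form a run of 3 on chromosome X, and their Δpde2 to wild type differences were -0.36, 1.48 and 1.89, the last of them 1.07 without wild type replicate 1. RPS15 and RPP2A on chromosome XV, at 0.59 and 0.72, and RPL24A and RPL30 on chromosome VII, at 0.44 and 0.66, were called on both sides.

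Probe design limited some members. The 101 members on probe sets specific to 1 transcript had 64 calls in Δpde2 against wild type with a median of 0.47, and the 21 on probe sets that match several transcripts had 16 with the same rounded median. A further 5 members on probe sets that may hybridize to unrelated transcripts had 1 call (4 without wild type replicate 1) and a median of 0.75. Of 20 members with 2 probe sets, 1 had differences more than 0.5 apart: RPL18B gave -0.39 on the dimmer and 0.19 on the brighter. For RPL21A, RPL8A, RPS10A and RPS17B 1 of the 2 probe sets was called and the other was not. A further 10 ribosomal protein symbols of the RefSeq table had no probe set of their own name, and for 9 of them a probe set shared between copies is annotated to the paralogue.

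Other parts of the translation machinery gave calls in both directions. In Δpde2 against wild type their counts stand beside 19.5% of all genes higher and 21.9% lower. In Δpde2 against wild type, 11 of 35 cytosolic translation factors rose and 3 fell, with a median difference of 0.34 (15, 3 and 0.20 without wild type replicate 1). TEF4, an elongation factor 1B subunit, rose by 0.72 over wild type (adjusted p = 0.00450) and by 0.74 over Δpde2Δtpk3 (adjusted p = 0.0211). The eIF5A genes went opposite ways in Δpde2: ANB1, the form used without oxygen, rose by 2.95 over wild type (adjusted p = 0.00281), and HYP2, the aerobic form, fell by 0.36 (adjusted p = 0.0280). Of 8 proteins that sit on the ribosome without carrying a ribosomal protein name, ASC1, MBF1, STM1 and TMA19 rose and none fell.

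Genes that build ribosomes gave few calls and were measured less tightly. Their median standard error in Δpde2 against wild type was 0.34, against 0.12 for the ribosomal protein genes, so equal differences passed less readily. Of 74 ribosome biogenesis factors 5 rose in Δpde2 against wild type and none fell, with a median of 0.36 that became 0.07 without wild type replicate 1 (9 higher and 2 lower). The snoRNP proteins NOP56 (1.50, adjusted p = 0.0224), NOP58 (1.14, adjusted p = 0.0223) and NHP2 (0.94, adjusted p = 0.0246) were the largest of those called, and EBP2, at 1.61, did not pass (adjusted p = 0.124). Between Δpde2 and Δpde2Δtpk3 the median was -0.13 with no call (3 higher and 1 lower without wild type replicate 1). Between Δpde2Δtpk3 and wild type it was 0.38 with no call, and 0.17 with no call without wild type replicate 1. Among 54 mitochondrial ribosomal proteins, 9 rose and 10 fell in Δpde2 against wild type, with a median of 0.05, and 0 rose and 4 fell against Δpde2Δtpk3. Without wild type replicate 1, 14 rose and 19 fell against wild type, with a median of -0.09, and 9 rose and 20 fell against Δpde2Δtpk3. The shares called were near those of all genes in Δpde2 against wild type.

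Chaperones of ribosomal proteins and nascent chains gave 2 higher and 1 lower of 17 in Δpde2 against wild type (19.5% and 21.9% of all genes). These were BTT1 (1.53) and ZUO1 (0.74) higher and the importin KAP123 (-0.73) lower. The counts were 6 higher and 2 lower without wild type replicate 1 (31.4% and 29.4% of all genes). BTT1 and ZUO1 act on chains leaving the ribosome. Their adjusted p were 0.00523 and 0.00363, and that of KAP123 was 0.0301.

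Of 19 listed regulators of these genes, 12 were not called in Δpde2 against wild type, 6 were lower and 1 was higher (6 and 3 without wild type replicate 1). Over all genes, 21.9% were lower and 19.5% higher (29.4% and 31.4% without that array), and the counts were not tested against these shares. CRF1, the corepressor that displaces Ifh1 from Fhl1, averaged 5.38 ± 0.28 in Δpde2 and 6.30 ± 0.34 in Δpde2Δtpk3, against 8.22 ± 0.93 in wild type (SD), and was called lower in Δpde2 than in wild type (adjusted p = 0.00274). Its Δpde2 level was close to that of the deleted PDE2, so the fitted difference of -2.84 (-2.33 without wild type replicate 1) does not measure how far it fell. Of the others, ABF1, a general factor found at some of these promoters, fell by 1.46 (adjusted p = 0.00132), the TOR complex genes KOG1 and TOR1 by 1.50 (adjusted p = 0.00316) and 1.28 (adjusted p = 0.0106), the kinase gene SCH9 by 0.62 (adjusted p = 0.0222) and MRS6, which binds Sfp1, by 0.53 (adjusted p = 0.0122). CKA2, a casein kinase 2 subunit, rose by 0.87 (adjusted p = 0.00531). RAP1, FHL1, IFH1, SFP1, HMO1, REB1 and STB3 were among the 12 that did not pass, and no regulator passed in either of the other comparisons with all arrays. Leaving out wild type replicate 1, 2 were higher and 5 lower in Δpde2 against Δpde2Δtpk3 (23.8% and 20.8% of all genes). In Δpde2Δtpk3 against wild type, 1 was then higher and 2 were lower (8.77% and 9.08% of all genes).

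Stress and stationary phase genes moved the other way. They were listed to follow the growth state of the cultures. The paper describes storage carbohydrate genes, among them TPS2 and TSL1 of this list, as lowered by protein kinase A, so the list does not read growth state alone. Of 15 listed, 10 fell and 1 rose in Δpde2 against wild type (21.9% and 19.5% of all genes), with a median of -0.83. Against Δpde2Δtpk3, 11 fell and none rose in Δpde2 (7.41% and 5.56% of all genes), with a median of -0.65. In Δpde2Δtpk3 against wild type 2 fell and none rose (1.69% and 1.03% of all genes), with a median of 0.06. HSP12, a membrane-protecting small heat shock protein, averaged 12.77 ± 0.54 in Δpde2 and 14.04 ± 0.17 in Δpde2Δtpk3, against 14.39 ± 0.09 in wild type (SD). The catalase gene CTT1 averaged 10.59 ± 0.06 in Δpde2 and 11.33 ± 0.18 in Δpde2Δtpk3, against 13.03 ± 0.05 in wild type. The part of the growth state at harvest in the ribosomal protein differences was not tested.

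**Figure D5:**
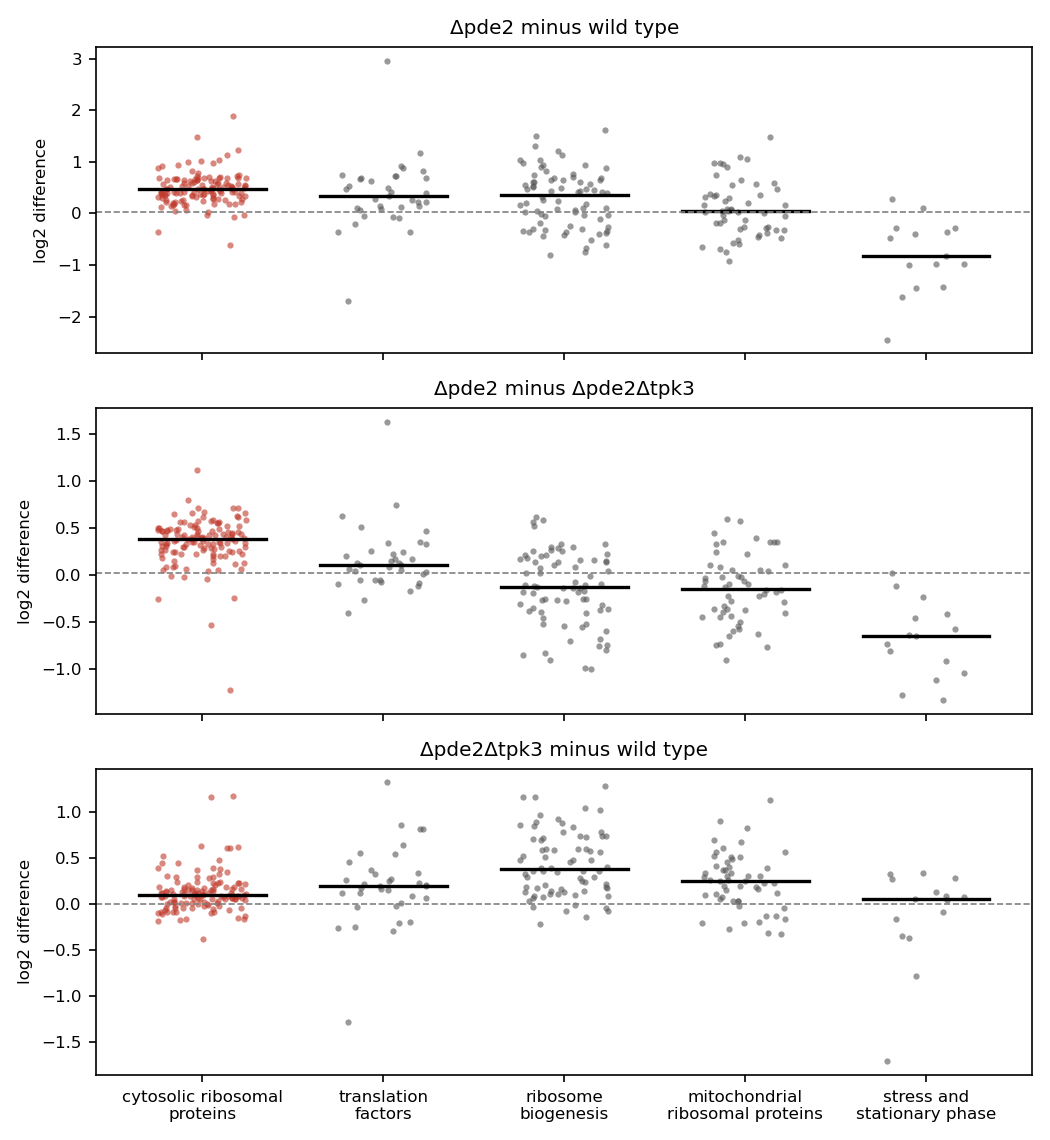
Log2 differences of single genes in 3 comparisons for 127 cytosolic ribosomal proteins (red) and for 35 translation factors, 74 ribosome biogenesis factors, 54 mitochondrial ribosomal proteins and 15 stress and stationary phase genes (grey), with the list median as a black bar and the median of all genes as a dashed line. The medians of the red points are 0.47, 0.38 and 0.10 from top to bottom, and those of the stress genes -0.83, -0.65 and 0.06.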

How the data were processed

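RNA from cultures grown for 24 h was hybridized to 8 Affymetrix Yeast Genome 2.0 arrays. The deposited values are log2 signals, 1 per probe set and array; the scale was inferred from their range. The methods state quality control in dChip and statistics in limma; how the authors summarized and normalized the probes is not given in the sources used here. Quartiles of the deposited columns differed by up to 0.386, so the columns were quantile normalized. Probe sets were named from the platform annotation (5498 with 1 gene, 316 with none); 12 symbols were updated through RefSeq, and the probe set with the highest mean stood for a gene. One limma fit (version 3.58.1, R 4.3.3) of the 3 strains over all 8 arrays, with 5 residual degrees of freedom, gave differences, standard errors and Benjamini-Hochberg adjusted p over 5449 genes, with calls at 0.05. Control probe sets stayed out of the fit. Data were simulated on these arrays with changes of 1 and 0.5 on the log2 scale. The test recovered 51.0% and 8.60% of the changed genes in Δpde2 against wild type. It recovered 39.4% and 3.40% in Δpde2 against Δpde2Δtpk3, and 43.8% and 3.40% in Δpde2Δtpk3 against wild type. The false shares of calls were 6.15%, 4.6% and 7.77%. Fewer genes were changed there than were called in Δpde2 against wild type. The noise was that of all genes, whose median standard error in that comparison was 0.18, against 0.12 for the members. Recovery of the members themselves was thus not measured. The number of arrays limits the precision.

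Named members were the 8 largest called differences per direction and comparison whose arrays did not overlap, the 5 pairs furthest apart, the stalk genes, members called nowhere and well-known members; other genes came from fixed lists. Members, lists and tests were chosen with earlier results of these data known. Alternatives covered normalization, probe set choice, filters, moderation, array weights, a replicate block and leaving out each array. All 8 arrays stayed in the main fit, and sequences were not analysed here.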

Additional observations from a re-analysis of the deposited data

Results flagged for a closer look

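One signal lies outside the measurements compared above. A control probe set for 5.8S ribosomal RNA, which is not polyadenylated and was not part of the fit, read 13.27, 13.15 and 13.22 in Δpde2 and 9.82 and 9.90 in Δpde2Δtpk3, against 8.35, 8.83 and 9.72 in wild type. The means differed by 4.25 on the log2 scale between Δpde2 and wild type and by 3.35 between Δpde2 and Δpde2Δtpk3, without overlap and without a test. Of 16 other ribosomal RNA control probe sets, 1 had Δpde2 arrays apart from all others, an 18S probe set that was lower in Δpde2 (4.32 to 4.58) than elsewhere (4.67 to 5.03), near the bottom of the range. Some 18S controls also varied widely within a strain. For example, 1 bright 18S probe set read 12.64, 12.60 and 9.10 in Δpde2 and 12.76 and 11.99 in Δpde2Δtpk3. On the wild type arrays it read 10.01, 13.19 and 13.54. How much ribosomal RNA was carried into each labelled sample is not given in the sources used here, and its part in the 5.8S signal was not tested.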

How the results depend on the processing

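The median difference of the members stayed above 0 in all 3 comparisons under every alternative run. For Δpde2 against wild type it was 0.39 with median centring and 0.38 with centring on the other genes, with a range of 0.38 to 0.50 when 1 array was left out, and the count of calls was 5 with a 2-fold requirement and 40 to 105 with 1 array left out. For Δpde2 against Δpde2Δtpk3 the count was 11 with median centring, 11 with centring on the other genes, 40 without the 33.3% of genes of lowest signal, 78 in a fit of only the 2 strains, 53 with trend and robust moderation, 65 with array weights, 1 with a 2-fold requirement, 82 when normalized without wild type replicate 1, and 0 to 82 with 1 array left out (median 0.32 to 0.43). For Δpde2Δtpk3 against wild type it was 4 with array weights (median 0.17), 7 when normalized without wild type replicate 1 and 0 to 7 with 1 array left out (median 0.04 to 0.15). The labels do not say whether same-numbered arrays shared a day or batch. Deviations of same-numbered arrays from their strain means correlated at -0.09 to 0.19. This cannot settle the question, because deviations within a strain of 2 or 3 arrays sum to 0. With the replicate number as a block the counts were 57 in Δpde2 against wild type, 0 in Δpde2 against Δpde2Δtpk3 and 0 in Δpde2Δtpk3 against wild type. Differences near 0 changed sign. Against wild type, RPL22B was -0.0796 to 0.254 with 1 array left out and RPL27B -0.144 to 0.0440, with 0.0555 under array weights and 0.0444 when normalized without wild type replicate 1. Against Δpde2Δtpk3, RPS28B was -0.433 to 0.526 and RPL27B -0.633 to 0.133 with 1 array left out, and RPS22B was 0.0301 with the block. The cause of these changes was not tested.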
